A study of Mus musculus with 4 samples.

Results

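The genes described here are the cytosolic ribosomal protein genes, taken as every gene whose symbol starts with Rpl or Rps in all 4 count matrices of a mouse joint inflammation series, without the S6 kinase genes and without rows named as pseudogenes (-ps). The rule gave 84 genes of the 11195 listed in all 4 matrices: 46 genes of the large subunit, 31 genes of the small subunit, and 7 paralogs or other matches to the prefix (Rpl7l1, Rpl22l1, Rpl36al, Rpl39l, Rps27l, Rps27rt and Rps19bp1). A further match, Rpl3l, was listed only at days 2 and 5, in 5 and 19 barcodes, and is no member. Of the 84 members, 83 reached 10 CPM (UMIs per 1000000 UMIs of the library) in at least 1 of both libraries of each comparison. Rpl39l did not, with 0.69, 1.74, 1.73 and 2.89 CPM at days 0, 1, 2 and 5.

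The cells came from hind-paw synovium of Cx3cr1creER:tdTomato mice at days 0, 1, 2 and 5 after transfer of K/BxN serum, which carries arthritis-inducing autoantibodies. The mice had received tamoxifen 4 weeks before the serum, at all 4 days, so that cells expressing the Cx3cr1-driven Cre at that time were marked. Cells were sorted as CD45+CD11b+Ly6G-, that is as myeloid cells without neutrophils, and 17400 cells per sample were loaded for droplet-based 3' sequencing with unique molecular identifiers (UMIs). There was 1 library per day, so day 0 serves as the resting joint, days are compared without replicates, and no test was run and no p-value computed. Every interval below is an exact 95% interval that covers counting error only.

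Ribosomal proteins and ribosomal RNA together form the 2 subunits of the ribosome, and each protein is needed in about equal number. Their mRNAs are among the most abundant in any cell, and most start with a run of pyrimidines, the 5' terminal oligopyrimidine (TOP) tract, through which mTORC1 and the RNA-binding protein Larp1 set their translation and stability. In macrophages and their monocyte precursors, growth and division go with ribosome production, and some ribosomal proteins also act outside the ribosome.

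Before the ribosomal protein values, the libraries themselves differed. With a minimum of 500 genes per barcode and mitochondrial UMIs below 10%, 3715, 4642, 2722 and 3235 barcodes remained at days 0, 1, 2 and 5. Their median UMI counts were 1057, 3607.5, 4183.5 and 3897, so the day 0 library was the shallow one, and the filter removed 50.7% of its barcodes against 0.685 to 1.23% at the other days. Mitochondrial UMIs took 2.72 to 3.51% and the nuclear RNA Malat1 2.76 to 3.78% of UMIs, and any 2 libraries shared 10 to 22 barcode sequences. The 6 macrophage and gate genes (Ptprc, Itgam, Csf1r, Lyz2, Cd68, Adgre1) summed to 23470 to 30815 CPM, while the neutrophil genes, of which 2 or 3 were listed, summed to 11.4 to 31.5 CPM, the 5 fibroblast genes to 43.2 to 119.7 CPM and the 4 haemoglobin genes to 0, 29.2, 5.18 and 161 CPM at days 0, 1, 2 and 5. Of the 4 T and NK cell genes, all were listed at day 0, at 9.2 CPM in sum, and none at the later days. The part of these cells and of depth in the differences below was not tested, apart from the depth-matched values given.

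The share of all UMIs that came from the 84 members was 14.8, 13.01, 12.6 and 16.4% at days 0, 1, 2 and 5. With 4347517 to 18373038 UMIs behind each share, its interval was narrow (14.81 to 14.87% at day 0 and 16.36 to 16.40% at day 5). Day 1 stood at 0.877 (interval 0.874 to 0.879) and day 2 at 0.849 (0.846 to 0.851) of the day 0 share, and day 5 at 1.10 (1.10 to 1.11) times it. The largest of the 6 day-to-day ratios was that of day 5 over day 2, at 1.30 (1.298 to 1.303). The median barcode had 14.6, 12.8, 12.2 and 15.0% at days 0, 1, 2 and 5. The central 90% of barcodes began at 10.7, 7.88, 7.73 and 8.48% and ended at 19.6, 20.5, 19.9 and 24.9%, so the barcodes of the 4 days overlapped widely and the day 5 library had the longest upper tail. The subunits kept nearly the same proportion, with 1.24, 1.23, 1.26 and 1.24 UMIs of large subunit genes for each UMI of a small subunit gene.

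**Figure D1:**
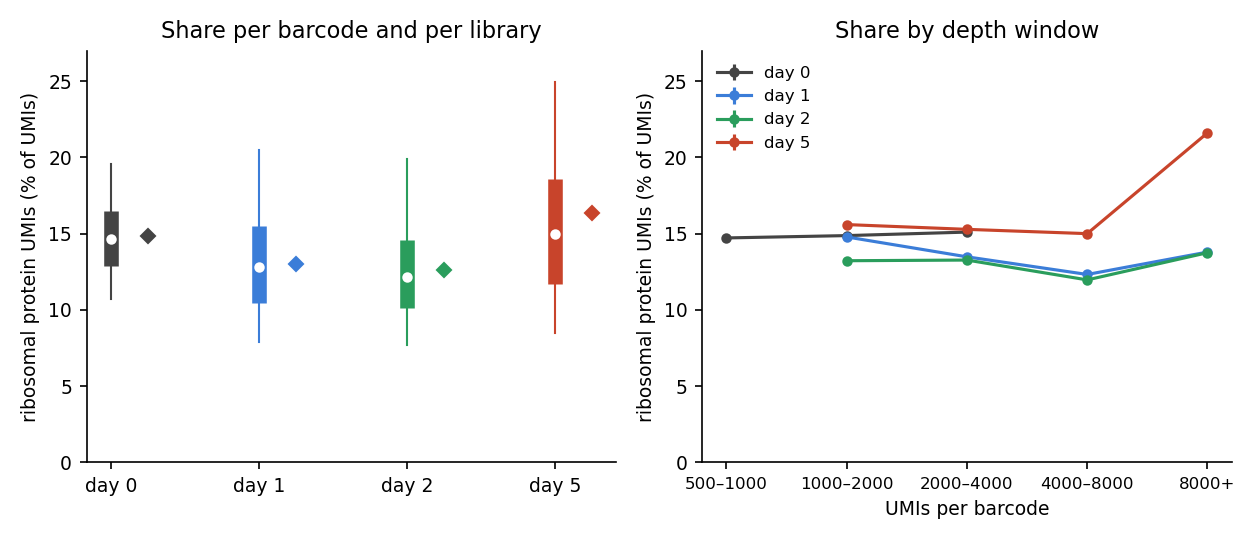
Left, ribosomal protein UMIs as a percentage of all UMIs, per barcode (line, 5th to 95th percentile; box, quartiles; white point, median) and per library (diamond) at days 0, 1, 2 and 5. Right, the same percentage over the summed UMIs of barcodes in a depth window, for windows with at least 20 barcodes, with exact 95% binomial intervals smaller than most points; the day 5 library sits at 15.0 to 15.6% below 8000 UMIs and at 21.6% from 8000 UMIs.

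Within a fixed depth the differences were smaller. Among barcodes of 1000 to 2000 UMIs, the share was 14.9, 14.8, 13.2 and 15.6% at days 0, 1, 2 and 5, from 2073, 628, 314 and 77 barcodes. Day 1 over day 0 was then 0.994 (interval 0.988 to 1.00), a difference within counting error, while day 2 over day 0 was 0.889 (0.882 to 0.897) and day 5 over day 0 was 1.05 (1.03 to 1.06). Among barcodes of 2000 to 4000 UMIs, of which day 0 held 131, the ratios to day 0 were 0.893, 0.879 and 1.01 at days 1, 2 and 5. Between the 3 deep libraries the order did not depend on the window: day 5 over day 2 was 1.18 at 1000 to 2000 UMIs, 1.15 at 2000 to 4000 UMIs and 1.25 at 4000 to 8000 UMIs.

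The excess of day 5 over day 0 came with 226 very deep barcodes. The 226 day 5 barcodes of 8000 UMIs or more had a ribosomal protein share of 21.6%, against 15.1% in the other 3009 day 5 barcodes. At days 1 and 2 the barcodes of that depth (189 and 176) stood at 13.8% each, and day 0 had none. The deep day 5 barcodes carried 487 CPM of the 4 cycling genes (Top2a, Mki67, Birc5, Ube2c) against 53.6 CPM in the rest. They were Top2a-positive in 27.9% against 2.66%. More cycling RNA in the deep barcodes was not particular to day 5. At day 1 they had 406 against 34.3 CPM and were Top2a-positive in 18.0% against 1.44%, and at day 2 250 against 19.7 CPM and 15.9% against 1.10%. The deep day 5 barcodes held 11970 against 26216 CPM of the macrophage and gate genes, against 29769 and 30138 CPM at day 1 and 31480 and 30702 CPM at day 2. A count of 8000 UMIs or more is also what doublets would give, and doublets were not removed; their part was not tested. Without the barcodes of 8000 UMIs or more in each library, a setting added after these values were seen, day 5 over day 0 was 1.02 (1.016 to 1.022), day 5 over day 1 was 1.17 and day 5 over day 2 was 1.22.

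The members followed the total closely. Against day 0, 72 of the 83 measured members were lower at day 1, where 33.5% of all 7354 measured genes were lower, and their median log2 ratio was -0.25, against 0.15 over all genes. At day 2, 74 of 83 were lower, beside 35.8% of all measured genes, with a median of -0.27 against 0.14. At day 5, 59 of 83 were higher than at day 0, beside 59.4% of all genes, with a median of 0.11 in the members and 0.11 over all genes. Without the barcodes of 8000 UMIs or more, 40 were higher and 43 lower. The clearest contrast did not involve the shallow library: all 83 were higher at day 5 than at day 1, where 44.2% of genes were higher, and all 83 were higher at day 5 than at day 2, where 45.9% were. Their medians were 0.33 and 0.37, against -0.05 and -0.04 over all genes, and without the deep barcodes 78 and 81 of 83 were higher. When the libraries were scaled on the median ratio of all genes instead of on total UMIs, every log2 ratio to day 0 shifted by -0.13, -0.12 and -0.09 at days 1, 2 and 5, which left 47 of 83 higher than day 0 at day 5. The counts without the deep barcodes and after this scaling have no share of all measured genes beside them. They describe the members only. 

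Few members moved far. At 1.5-fold, 1 member was higher at day 1 than at day 0 (background 13.9% of genes) and 3 were lower (background 5.17%); the same 1 and 3 members passed at day 2 (13.8 and 6.19%). At day 5, 3 members were higher than at day 0 and none lower, beside 17% and 9.17% of all genes. Each of these shares of members lay under its background. Rpl36al, Rpl41 and Rplp0, 3 of the 83, passed the same fold upwards at day 5 over day 1 (background 7.84%). With day 2 as the base they were joined by Rps19, Rps27rt, Rps28 and Rpsa, so that 7 passed, close to the background of 8.58%.

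The 10 most abundant members together held 23.7 to 24.7% of ribosomal protein UMIs in each library. Of the large subunit, Rpl37a had 3835, 3366, 3121 and 4511 CPM at days 0, 1, 2 and 5, Rpl13 had 3762, 3111, 3029 and 4122 CPM, and Rpl32 had 3141, 2480, 2399 and 3116 CPM. Of the small subunit, Rps19, the gene most often mutated in human Diamond-Blackfan anaemia, had 2976, 2564, 2493 and 3753 CPM, Rps14 had 3678, 3035, 2952 and 3624 CPM, and Rps23, a protein of the decoding centre, had 3587, 2888, 2831 and 3204 CPM. Days 1 and 2 were below days 0 and 5 in each of these 6.

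Because the total moved, the members were also set against it, as the share of each among all ribosomal protein UMIs of the library. A small set departed in the same direction on every later day, and is given first.

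Rpl35, a large subunit protein near the exit of the nascent peptide tunnel, departed furthest upwards. It had 1187, 2035, 1895 and 2691 CPM at days 0, 1, 2 and 5, so that each later day was above day 0. Within the ribosomal protein total it was 1.95 (interval 1.90 to 2.01), 1.88 (1.83 to 1.94) and 2.05 (2.00 to 2.11) times the day 0 value. It was the 1 member past 1.5-fold higher in CPM at days 1 and 2. At day 5 over day 1 its ratio within the total was 1.05 (1.04 to 1.07), so the 3 later libraries differed little.

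Rpl13a, which in human monocytic cells is released from the large subunit after interferon gamma to silence inflammatory mRNAs, had 230, 299, 312 and 422 CPM, and was 1.48, 1.59 and 1.66 times the day 0 value within the total at days 1, 2 and 5. Rpl38, a large subunit protein known in the mouse from the Tail-short mutation, had 1220, 1516, 1358 and 1998 CPM, with 1.42, 1.31 and 1.48 times the day 0 value within the total. Rpl10, which is added late to the large subunit and takes part in subunit joining, had 2054, 2475, 2487 and 2811 CPM. These 3 were above day 0 on every later day on both scales.

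Of the small subunit, Rps29 had 4180, 5707, 4737 and 5814 CPM, the highest of any member in each library. Within the total it was 1.56 (1.53 to 1.58), 1.34 (1.31 to 1.36) and 1.26 (1.24 to 1.28) times the day 0 value, so its excess was largest at day 1 and smallest at day 5. Rps28, at the mRNA exit side of the small subunit, had 2293, 2723, 2238 and 3429 CPM and was 1.35, 1.15 and 1.35 times the day 0 value within the total.

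On the other side, Rps26, which contacts mRNA upstream of the start codon, had 1353, 851, 831 and 1170 CPM, all later days below day 0. It was 0.718 (0.697 to 0.740), 0.724 (0.701 to 0.748) and 0.784 (0.761 to 0.808) of the day 0 value within the total. Rpl27, of the large subunit, had 834, 533, 537 and 791 CPM and was 0.728, 0.759 and 0.859 of the day 0 value. Rpl30, also of the large subunit, had 1152, 802, 793 and 837 CPM and was lowest at day 5 within the total, at 0.658 (0.637 to 0.680).

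Other members stood furthest from day 0 at day 5. Rpl41, the smallest ribosomal protein, had 3523, 3206, 3102 and 5167 CPM, and was 1.04, 1.04 and 1.33 times the day 0 value within the total. Rps25, needed for initiation on some internal ribosome entry sites, had 2060, 1519, 1532 and 1698 CPM, and Rpl21 had 2002, 1569, 1512 and 1667 CPM. Within the total these were 0.747 (0.729 to 0.765) and 0.755 (0.736 to 0.773) of the day 0 value at day 5, and both were below day 0 on all 3 later days on either scale.

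The acidic stalk of the large subunit, which recruits the elongation factors, was not uniform. Rplp0, its base, had 2224, 1822, 1797 and 2779 CPM. Rplp1 had 2790, 2246, 2198 and 2301 CPM, and Rplp2 had 1905, 1753, 1757 and 2239 CPM. Rplp0 was lower at days 1 and 2 than at day 0 and highest at day 5, while Rplp1 was below its day 0 level on all 3 later days. Within the total, day 5 over day 2 was 1.19 (1.17 to 1.21) for Rplp0 and 0.805 (0.792 to 0.818) for Rplp1, whose proteins stand in the same complex. In a depth window the comparison with day 0 came out differently. Within the total, Rplp0 at day 5 was 1.13 times its day 0 value over all barcodes. It was 0.681 times that value in barcodes of 1000 to 2000 UMIs, of which day 5 held 77. The same window gave 0.588 at day 1 and 0.590 at day 2. The cause of the difference between all barcodes and the window was not tested.

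**Figure D2:**
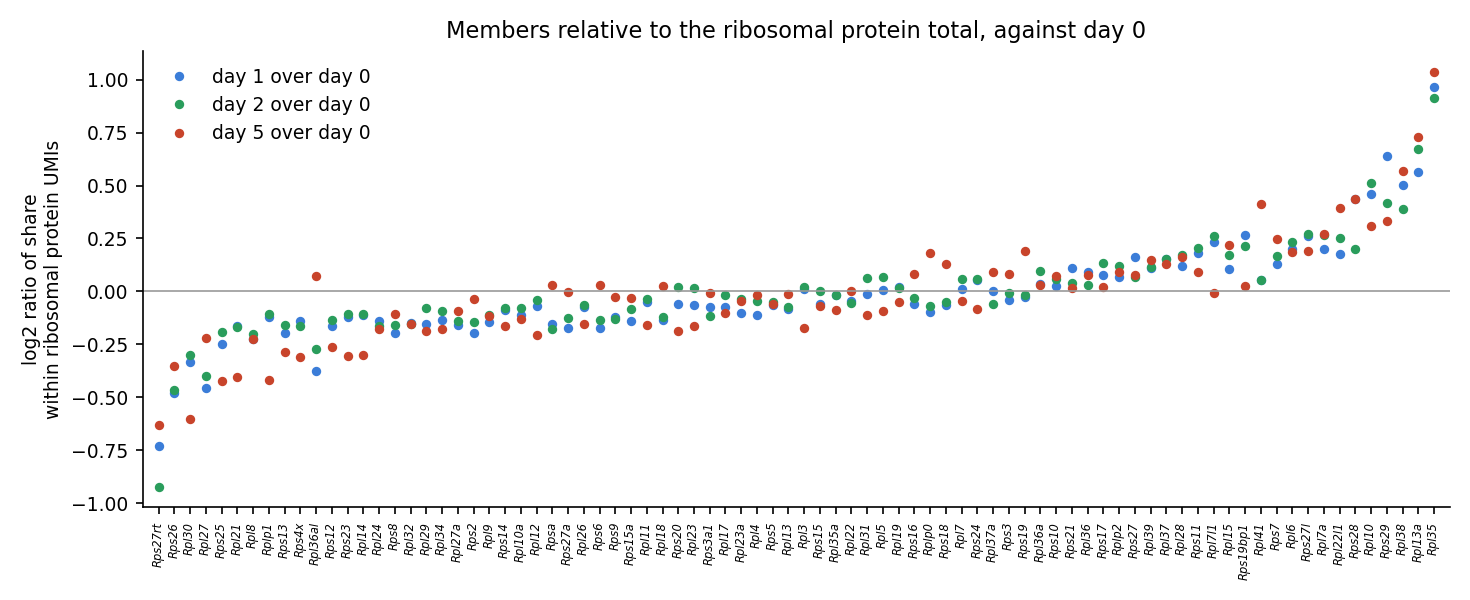
Log2 ratio of each member's share within all ribosomal protein UMIs at day 1 (blue), day 2 (green) and day 5 (red) over day 0, for all but 1 of the members of at least 50 CPM on average, ordered by the mean of the 3 ratios. Rps27rt, Rps26, Rpl30 and Rpl27 stand at the low end and Rpl35, Rpl13a, Rpl38 and Rps29 at the high end, on the same side of 0 on all 3 days.

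To show what departing members have around their annotated transcription start, where a TOP tract would begin, the 20 bases before and 20 bases from each start were read for 6 of them. The sequences are from RefSeq promoters on GRCm38.p6, 5' to 3' on the strand of the gene, with the longest run of at least 8 pyrimidines (C or T) in capitals. A run was marked anywhere in the window, so it need not be a TOP tract. The run of Rps25 lies wholly in the 20 bases before the annotated start. The first 3 genes were high within the ribosomal protein total and the last 3 low. Rpl35 lies at chr2:39005112-39005151 (minus strand), Rpl13a at chr7:45128726-45128765 (minus), Rpl38 at chr11:114668560-114668599 (plus), Rps26 at chr10:128626487-128626526 (minus), Rpl27 at chr11:101442225-101442264 (plus) and Rps25 at chr9:44407694-44407733 (plus).
Rpl35: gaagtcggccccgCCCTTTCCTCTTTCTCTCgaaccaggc
Rpl13a: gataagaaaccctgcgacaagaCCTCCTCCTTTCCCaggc
Rpl38: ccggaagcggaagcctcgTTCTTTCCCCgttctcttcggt
Rps26: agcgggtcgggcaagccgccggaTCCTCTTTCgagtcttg
Rpl27: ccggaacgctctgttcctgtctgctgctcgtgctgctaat
Rps25: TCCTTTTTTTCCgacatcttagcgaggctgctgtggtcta

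Such a run, anywhere in the window on the strand of the gene, was present in 28 of the 57 main ribosomal protein genes in the table (49.1%), and in 18.3% of the other 26961 genes. Within these main genes, ranked by the mean log2 ratio within the total, it did not separate the ends: 5 of the 10 highest and 5 of the 10 lowest had one. Rpl30 and the paralogs were not in this ranking. Over the 83 members, the within-total log2 ratio to day 0 had a Pearson correlation with coding length between -0.12 and -0.03 over the 3 days, a description over genes that share libraries. The Spearman correlation was -0.18, -0.15 and -0.09 at days 1, 2 and 5. The 28 members with a coding length under 400 bases had median log2 ratios of 0.045, 0.046 and 0.049. The 55 longer ones had -0.075, -0.051 and -0.044. The early and late contrasts, day 1 over day 0 and day 5 over day 2, which share no library, had a correlation of -0.07 over the 83 members.

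The paralogs were mixed. Rps27rt, whose coding sequence is identical to that of Rps27 over all 252 bases, had 511, 270, 229 and 365 CPM, while Rps27 had 3367, 3306, 2992 and 3915 CPM. The sources used here do not say how reads were divided between these copies, so the low values of Rps27rt at days 1 and 2 are uncertain. Rpl36al, 87.7% identical to Rpl36a in coding sequence, had 427, 288, 300 and 495 CPM and showed the day 5 over day 2 contrast of the total more strongly, at 1.27 (1.22 to 1.32) within it. Rpl22l1, the paralog of Rpl22 and 67.5% identical to it, had 457, 454, 462 and 663 CPM. Rps27l, a p53-induced paralog of Rps27, had 477, 501, 489 and 601 CPM. The levels of Rpl7l1 (74.8, 77.0, 76.0 and 82.1 CPM) and of Rps19bp1, a nucleolar binding partner of Rps19 and no ribosomal protein (53.6, 56.6, 52.7 and 60.3 CPM), varied least across the 4 libraries.

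Other genes of the translation apparatus gave the following. Of ribosomal protein genes outside the prefix, Fau, a small subunit protein made as a ubiquitin-like fusion, had 2581, 2396, 2330 and 2869 CPM, and Rack1, the small subunit scaffold, 568, 493, 472 and 638 CPM, both low at days 1 and 2 and highest at day 5. Of the ribosome biogenesis list, 54 of 61 measured genes were above day 0 at day 5 (12 at least 1.5-fold and none as far below), beside 59.4% of all measured genes above and 17% at least 1.5-fold above, with a median log2 ratio of 0.29 against 0.11 over all genes, and -0.02 and -0.00 at days 1 and 2. Its ends at day 5 were Heatr1, an rRNA processing factor, at 13.9 CPM at day 5 against 4.37 CPM at day 0, and Rsl24d1, a late 60S factor, at 49.3 CPM against 67.6 CPM.

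The 17 or 18 measured elongation factors and other TOP transcripts had medians of -0.07, -0.07 and 0.31 at days 1, 2 and 5, and the 39 measured initiation factors 0.02, 0.05 and 0.25. Eif3f, an initiation factor subunit in both lists, had 542, 155, 87.4 and 367 CPM, the lowest day 5 over day 0 ratio of either list. Elongation factor Eef2 had 770, 555, 555 and 598 CPM and Eef1g had 256, 270, 281 and 462 CPM. The 75 measured mitochondrial ribosomal protein genes had medians of 0.00, -0.03 and 0.19, and 56 of them were above day 0 at day 5, beside 59.4% of all measured genes, with Mrps6 the furthest, at 30.4 CPM against 14.3 CPM at day 0. Among the 20 or 21 measured mTORC1 and translation targets the median was 0.11, 0.09 and -0.06, with Larp1, which binds TOP tracts, at 14.7, 21.0, 20.1 and 26.6 CPM and Pdcd4, an inhibitor of the initiation helicase, at 109, 43.2, 37.9 and 30.7 CPM. The RNA polymerase I list (9 or 10 genes) had medians of 0.04, 0.05 and 0.20. Its initiation factor Rrn3 was at 8.39 CPM at day 5 against 20.01 CPM at day 0.

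The share was next compared between cells. Barcodes were called positive for each of 6 genes from 1 UMI, and set against an equal number of negative barcodes of the same depth from the same library. Sparc marks the macrophages of the synovial lining, Cd163 the interstitial macrophages, H2-Aa cells high in MHC class II, Plac8 monocytes and their recent progeny, Spp1 an activated macrophage state, and Top2a dividing cells. At day 0 these calls separated the barcodes least. Sparc was positive in 51.5% of all day 0 barcodes, and in 62.5% of its 32 Plac8-positive barcodes (median 1090.5 UMIs), which as monocytes should lack it. At day 5 it was positive in 28.3% of all barcodes and in 8.60% of the 826 Plac8-positive ones (median 3893.5 UMIs). Day 0 ratios are therefore given as values of overlapping sets.

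Sparc-positive barcodes had less of their RNA in ribosomal protein messages at every day. Their share was 14.2, 11.3, 11.2 and 12.1% at days 0, 1, 2 and 5. In the matched negatives it was 15.5, 14.4, 14.2 and 18.4%. The ratio was 0.914 (interval 0.909 to 0.919), 0.785 (0.783 to 0.787), 0.792 (0.789 to 0.795) and 0.657 (0.655 to 0.660). At day 5, 9.18% of the matched Sparc-positive barcodes lay above the median of their negatives. At 4000 to 8000 UMIs, day 5 Sparc-positive barcodes stood at 10.9%, against 17.4% in the negatives of that window. Barcodes positive for Sparc and none of the other 5 genes had 13.5, 10.6, 10.5 and 10.7% at days 0, 1, 2 and 5.

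With every barcode thinned to 500 UMIs before the call, Sparc-positive barcodes had 13.9, 10.6, 10.6 and 10.7%, so across the 3 later libraries their share hardly differed. Thinned Sparc-negative barcodes had 15.2, 13.9, 13.4 and 16.3%. The difference between day 5 and the early days was thus found in the negatives and hardly in the positives.

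The lower share held member by member. All 83 members were lower in Sparc-positive barcodes at days 0, 2 and 5, and 82 of 83 at day 1, beside 53.2, 52.4, 48.3 and 52.2% of all measured genes. At day 5, 44 of the 83 were at least 1.5-fold lower, against a background of 13.2%, and none were so at days 0, 1 and 2 (backgrounds 5.29, 6.64 and 6.25%). The gap at day 5 was widest for Rplp0, with 1711 CPM in Sparc-positive barcodes against 3376 CPM in matched negatives, a ratio of 0.507 (0.493 to 0.521). Rpsa, a small subunit protein also known as the laminin receptor, had 748 against 1445 CPM, and Rps6, the substrate of the S6 kinases, 1452 against 2630 CPM. It was narrow for Rps29, at 5215 against 5895 CPM. Malat1 took 3.19% of UMIs in Sparc-positive barcodes at day 5 and 2.43% in their negatives; its part was not tested.

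**Figure D3:**
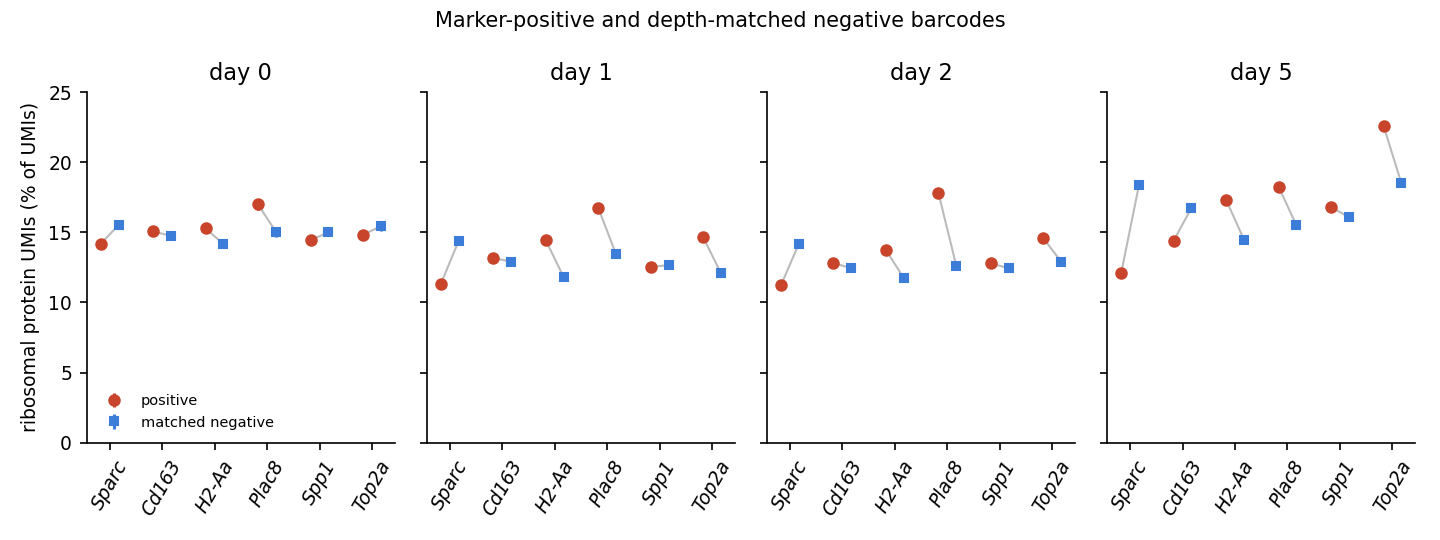
Ribosomal protein UMIs as a percentage of all UMIs in barcodes positive for each marker (red circles, left of each pair) and in an equal number of depth-matched negative barcodes of the same library (blue squares, right), at days 0, 1, 2 and 5, with exact 95% binomial intervals mostly smaller than the points. Sparc-positive barcodes are below their negatives at all 4 days, H2-Aa- and Plac8-positive barcodes above them at all 4.

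Plac8-positive barcodes lay on the other side. Their share was 16.98, 16.7, 17.8 and 18.2% at days 0, 1, 2 and 5, from 32, 59, 52 and 826 barcodes. The matched negatives had 15.0, 13.4, 12.6 and 15.5%. The ratio was 1.13 (1.09 to 1.17), 1.25 (1.23 to 1.27), 1.41 (1.39 to 1.43) and 1.18 (1.17 to 1.18). At day 2, 90.4% of Plac8-positive barcodes lay above the median of their negatives, and at day 5 88.5% did. Thinned to 500 UMIs, the positives stood at 16.7, 18.8, 20.2 and 18.3%, from 12, 33, 29 and 398 barcodes. In barcodes of 8000 UMIs or more the order was turned round at day 5, with 20.3% in 46 positives against 22.0% in 180 negatives, and at day 2 the ratio was 0.976 (0.952 to 1.00) with 4 positives.

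Of 83 measured members, 60, 74, 78 and 71 were higher in Plac8-positive barcodes at days 0, 1, 2 and 5, beside 36.3, 41.4, 41.7 and 37% of all measured genes. Past 1.5-fold upwards were 8, 11, 25 and 2 members, against backgrounds of 14.6, 20.9, 20.5 and 10.4%, so that only the count at day 2 exceeded its background. Rplp0 again stood at the end, with 3570 CPM in Plac8-positive barcodes against 1667 CPM in negatives at day 2, and 4054 against 2313 CPM at day 5, a ratio of 1.75 (1.71 to 1.80). Rps6 had 2908 against 2006 CPM at day 5. The partner of Rplp0 in the stalk, Rplp1, was at 1971 CPM in Plac8-positive barcodes and 2408 CPM in negatives at day 5. Its ratio was below 1 while that of the total was above it. Rps27l was at 473 against 621 CPM. Malat1 took 2.00% of UMIs in the positives and 3.03% in the negatives.

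Over all depths, H2-Aa-positive barcodes were above their matched negatives at every day. They had 15.3, 14.4, 13.7 and 17.3% at days 0, 1, 2 and 5, and their negatives 14.2, 11.8, 11.7 and 14.5%. The ratios were 1.08 (1.07 to 1.09), 1.22 (1.22 to 1.23), 1.17 (1.16 to 1.17) and 1.20 (1.19 to 1.20). Among barcodes of 1000 to 2000 UMIs the order was turned round at day 2, at 0.970 (0.955 to 0.985), and at day 5, at 0.945 (0.920 to 0.970; 35 positives against 42 negatives). Of 83 members, 81, 82, 82 and 82 were higher, beside 47.3, 38.3, 39.3 and 42% of all measured genes. Within the total at day 5, Rpsa, Rplp0 and Rps19 were the highest in these barcodes, and Rps19bp1, Rpl7l1 and Rplp1 the lowest.

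Over all depths, Cd163-positive barcodes hardly differed from their negatives until day 5. They had 15.1, 13.2, 12.8 and 14.4%, against 14.7, 12.9, 12.4 and 16.7% in the negatives. The ratio was 1.02 (1.015 to 1.029), 1.02 (1.019 to 1.024), 1.03 (1.026 to 1.033) and 0.860 (0.857 to 0.863). Depth windows differed at day 1, with 0.942 (0.932 to 0.952) at 1000 to 2000 UMIs, 1.05 at 4000 to 8000 UMIs and 0.947 from 8000 UMIs. At day 2 the ratio was 0.990 (0.982 to 0.998) from 8000 UMIs. At day 5 it was 1.03 (1.00 to 1.06) at 1000 to 2000 UMIs, with 26 positives. Of 83 members, 53, 56 and 65 were higher at days 0, 1 and 2, beside 50.2, 53.9 and 53.3% of all measured genes. At day 5, 79 of 83 were lower, beside 43.8%. Thinned to 500 UMIs, Cd163-positive barcodes had 14.7% at day 5 and negatives 15.5%. The members that departed within the total were largely those of Sparc, with Rps29 and Rplp1 highest and Rplp0 and Rps6 lowest.

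Spp1-positive barcodes had 14.4, 12.5, 12.8 and 16.8%, against 15.0, 12.6, 12.4 and 16.1% in the negatives. The ratio was 0.964 (0.953 to 0.974), 0.991 (0.986 to 0.996), 1.03 (1.02 to 1.03) and 1.05 (1.04 to 1.05), and at each day its direction changed under at least 1 other setting. Of 83 members, 19, 40, 66 and 70 were higher, beside 46.6, 46.7, 42.2 and 47.9% of all measured genes. A difference by Spp1 was therefore not established in either direction.

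Top2a-positive barcodes were few, with 36, 98, 56 and 143 at days 0, 1, 2 and 5. Their share was 14.8, 14.6, 14.6 and 22.6%, against 15.4, 12.1, 12.9 and 18.5% in negatives of like depth. The ratio was 0.962 (0.928 to 0.997), 1.21 (1.20 to 1.22), 1.13 (1.12 to 1.14) and 1.22 (1.22 to 1.23). By depth window, the day 2 ratio was 0.655 at 1000 to 2000 UMIs (3 positives) and 0.942 (0.910 to 0.976) at 2000 to 4000 UMIs (8 positives). It was 1.02 at 4000 to 8000 UMIs (17 positives) and 1.18 from 8000 UMIs (28 positives). Top2a-positive barcodes were deep, with a median of 7379 UMIs at day 5. Thinned to 500 UMIs before the call, 14, 23, 12 and 32 barcodes were positive, and had 14.5% (interval 13.7 to 15.4), 13.8% (13.2 to 14.5), 12.3% (11.4 to 13.1) and 20.2% (19.5 to 20.8), against 14.8, 13.3, 12.7 and 15.4% in the negatives. At day 5 the positives were thus higher with either call, and at days 1 and 2 the interval lay above the negatives only with the call on full counts against depth-matched negatives. The size at day 5 depended on the negatives drawn and on the call. The ratio was 1.15 with another draw and 1.07 with 50 depth bins. It was 1.01 in barcodes positive for Top2a and none of the other 5 genes, of which there were 11. The members higher in the positives were 35 of 83, 78 of 83, 70 of 84 and 80 of 83, beside 37.3, 51.8, 51.7 and 53.8% of all measured genes. The 84 at day 2 include Rpl39l, which had 21 UMIs over all day 2 barcodes and reached 10 CPM in this small draw. Among the 81 members with at least 100 UMIs over both sides at day 2, 68 were higher. At day 5, 1 of the 83 members was at least 1.5-fold higher, beside 20.5% of all measured genes. That member was Rps19bp1, at 104 against 57.0 CPM.

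**Figure D4:**
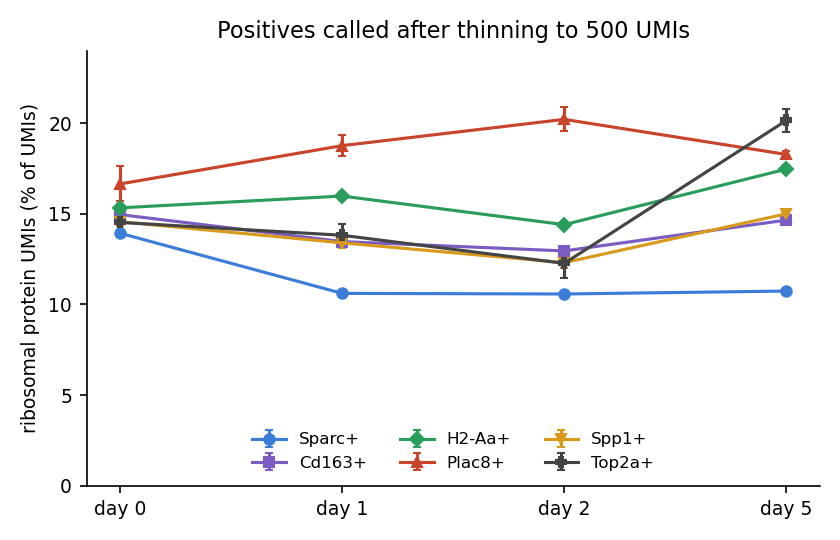
Ribosomal protein UMIs as a percentage of UMIs in barcodes positive for each marker when every barcode was thinned to 500 UMIs before the call, at days 0, 1, 2 and 5, with exact 95% binomial intervals. At days 1, 2 and 5 the Sparc-positive barcodes lie lowest at 10.6 to 10.7%, and Plac8-positive ones at 18.3 to 20.2%; Top2a-positive ones reach 20.2% at day 5.

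Not only the total but the mix of ribosomal protein messages differed by marker. Within the total at day 5, Rplp0 stood at a log2 ratio of -0.37 in Sparc-positive and -0.36 in Cd163-positive barcodes, and at 0.57 in Plac8-positive ones. Rps6 was at -0.25, -0.24 and 0.30 in the same 3 sets. Rplp1 ran the other way, at 0.24, 0.30 and -0.53, and so did Rps29, at 0.43, 0.31 and -0.24. Rps27l was lowest of all in Plac8-positive barcodes, at -0.63. Rpl35, which differed most between days, differed little by marker at day 5, with 0.974 times the level of the matched negatives in Sparc-positive and 0.916 times in Plac8-positive barcodes within the total. At day 0 the spread of these ratios over members was small for Sparc, from -0.08 to 0.12, and at day 5 it ran from -0.37 to 0.49. The sets overlap and share matched negatives, so the columns are not independent.

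**Figure D5:**
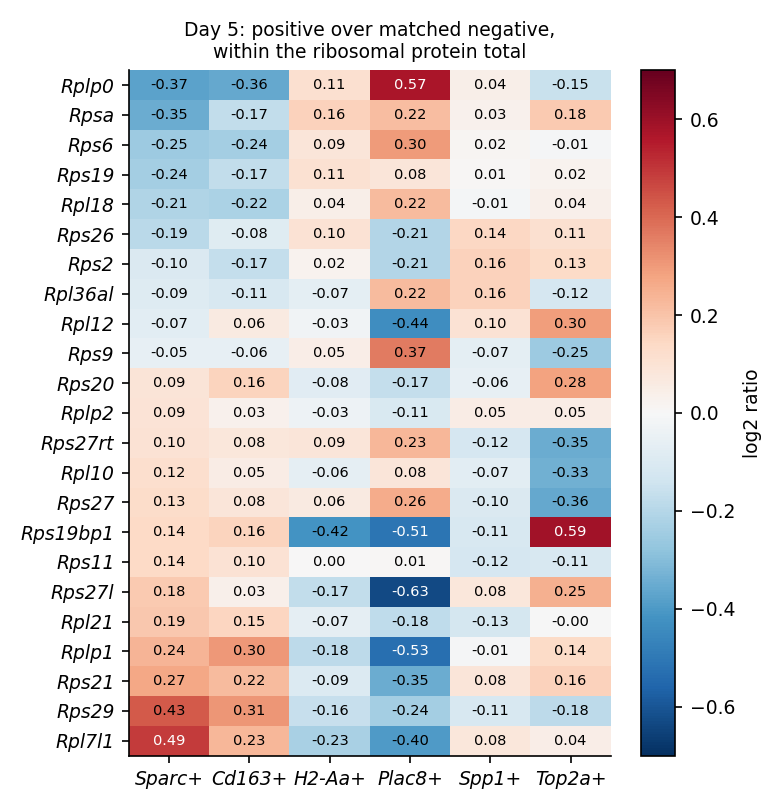
Log2 ratio, positive over depth-matched negative barcodes at day 5, of each member's share within all ribosomal protein UMIs, for the 3 highest and 3 lowest members of each marker and the stalk genes, ordered by the Sparc column. Rplp0, Rpsa and Rps6 are low in Sparc+ and high in Plac8+; Rplp1, Rps21, Rps29 and Rpl7l1 are high in Sparc+ and low in Plac8+.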

How the data were processed

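The deposited files are whole-number UMI counts of 10x 3' libraries per gene and barcode, 1 matrix per day, deposited by the authors, and the submitters' processing notes name the build mm10. Cell Ranger 2.1.0, Seurat 2.3 and R 3.5.2 are named there without their roles. Barcodes with at least 500 genes and under 10% mt- UMIs were kept, and doublets were not removed. Total and median UMIs per library are given with the results. Shares are member UMIs over all UMIs, with exact Clopper-Pearson intervals at 95%. Ratios have exact conditional Poisson intervals. All intervals cover counting error only. CPM is UMIs per 1000000. Member counts used genes of at least 10 CPM in 1 of both libraries. Positives (from 1 UMI) were matched to an equal number of negatives in 20 depth bins of the library by a seeded draw. A second comparison thinned barcodes to 500 UMIs. Named members were the 5 highest and 5 lowest within the ribosomal protein total per day contrast, the 3 highest and 3 lowest per marker (at least 100 UMIs), the stalk genes, the paralogs and the most abundant members. Of other lists, ends at day 5 are named, and genes the rule also covers but that have no value in the text are not reported here. The members, markers and lists were chosen with earlier results of these data known. The ratio and matching steps were tested on simulated counts. Python 3.11.15, NumPy 2.4.6, SciPy 1.17.1 and Biopython 1.88 were used. Start-site sequences and copy identities come from RefSeq GRCm38.p6 and GENCODE tables. No protein table was used here. With 1 library per day, no test was run.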

Additional observations from a re-analysis of the deposited data

Results flagged for a closer look

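The ratio of the ribosomal protein share in positive over matched negative barcodes pointed in different directions on different days for 3 markers, and the difference between days was not tested. At days 0, 1, 2 and 5 it was 1.02, 1.02, 1.03 and 0.860 for Cd163. For Spp1 it was 0.964, 0.991, 1.03 and 1.05. For Top2a it was 0.962, 1.21, 1.13 and 1.22.

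Signal also appeared in rows that the rule leaves out, those named as pseudogenes of ribosomal protein genes. Of 7 such rows, 5 were above their day 0 level at every later day. Of all measured genes, 66.5, 64.2 and 59.4% were above day 0 at days 1, 2 and 5. Summed over the 7 rows, the level was 379, 395, 386 and 531 CPM at days 0, 1, 2 and 5. Most of the day 0 sum lay in rows not named here. GENCODE lists Rpl9-ps6 and Rps12-ps3 as protein-coding genes. At day 5 over day 0, Rpl7a-ps5 was at 6.28 (interval 3.75 to 11.4; 21.7 against 3.45 CPM), Rpl13a-ps1 at 4.96 (9.13 against 1.84 CPM), Rpl9-ps6 at 2.79 (92.5 against 33.1 CPM), Rps12-ps3 at 2.41 (47.2 against 19.6 CPM) and Rpl27-ps3 at 2.39 (90.5 against 38.0 CPM). Whether their reads belong to the parent genes was not tested.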

How the results depend on the processing

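No paired analysis was possible because each day has 1 library and no replicate numbers pair samples. The window of 500 to 1000 UMIs was not run, since days 1, 2 and 5 have no barcode in it, and with at least 1000 genes day 0 keeps 96 barcodes. The shallow day 0 library, undetected doublets and marker calls from 1 UMI are the main limits.

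Day 1 over day 0 kept its direction in all settings, at 0.866 with at least 1000 genes, 0.873 with at least 200, 0.883 under 5% mitochondrial UMIs, 0.874 without the 5% deepest barcodes, 0.871 without those of 8000 UMIs or more, 0.870 without mt- UMIs, 0.873 without Malat1 as well, 0.897 as a mean over barcodes and 0.865 without the 10 most abundant members. Day 2 over day 0 was 0.845 with at least 200 genes, 0.857 under 5% mitochondrial UMIs, 0.838 without the 5% deepest barcodes, 0.835 without those of 8000 UMIs or more, 0.842 without mt- UMIs, 0.859 as a mean over barcodes and 0.846 without the 10 most abundant. Day 5 over day 0 was 1.10 with at least 200 genes, 1.11 under 5% mitochondrial UMIs, 1.03 without the 5% deepest barcodes, 1.02 without those of 8000 UMIs or more, 1.10 without mt- UMIs, 1.09 without Malat1 as well, 1.05 as a mean over barcodes and 1.09 without the 10 most abundant. In the window of 2000 to 4000 UMIs the 3 ratios were 0.893, 0.879 and 1.01.

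The number of members at least 1.5-fold from day 0 moved as follows. Median-ratio scaling gave 5 lower at day 1, and 0 higher and 5 lower at day 2. At least 1000 genes gave 5 lower at days 1 and 2, and 2 lower at day 5. With no filter on low values, 2 were higher at days 1 and 2. At 2-fold, 0 were higher and 0 lower at day 1, 0 higher and 1 lower at day 2, and 1 higher at day 5. With day 1 in place of day 0, a setting added after the data were seen, day 2 had 0 and 0.

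Spp1-positive barcodes had the higher share on 2 days, and on 1 day under 5% mitochondrial UMIs or from 2 UMIs, and on 4 days when positive for Spp1 alone. Its ratio turned to 1.09, 1.00 and 1.02 at day 0 (at least 1000 genes, thinned, Spp1 alone), 1.03 and 1.12 at day 1 (thinned, Spp1 alone), 0.995, 0.993 and 0.984 at day 2 (under 5% mitochondrial, from 2 UMIs, thinned) and 0.981 at day 5 (thinned). Top2a-positive barcodes had it on 3 days, and on 1 day when thinned. Its ratio turned to 1.03 and 1.05 at day 0 (without the 5% deepest, 50 depth bins) and, thinned, to 0.909 at day 1 and 0.951 at day 2. Cd163 at day 1 was 0.987 when thinned. These thinned ratios use an equal number of drawn negatives, whereas the thinned shares in the results use all negatives, which at day 1 put Top2a-positive barcodes at 13.8% against 13.3%. Sparc, H2-Aa and Plac8 kept their direction at all days in these settings, though H2-Aa at 1000 to 2000 UMIs (days 2 and 5) and Plac8 from 8000 UMIs (days 2 and 5) did not within the depth window, and the cause of these reversals was not tested.

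Of single members, Rps27l at day 1 was 0.960 with median-ratio scaling. In barcodes of 1000 to 2000 UMIs, the ratio within the total was 1.34 for Rpl37a at day 2, 0.946 for Rpl7l1 at day 1, 0.681 for Rplp0 at day 5, 1.06 and 1.01 for Rplp1 and 1.03 and 1.02 for Rps14 at days 1 and 2.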

Other observations

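The deepest day 5 barcodes, described above for their ribosomal protein share of 21.6%, also carried genes of the osteoclast lineage, the bone-resorbing relatives of macrophages. Ctsk, the collagen-degrading protease of osteoclasts, was at 2815 CPM in the 226 barcodes of 8000 UMIs or more, against 89.3 CPM in the other day 5 barcodes. Acp5, the tartrate-resistant acid phosphatase, was at 1536 against 52.8 CPM and Mmp9, a gelatinase, at 763 against 7.98 CPM. Barcodes of that depth were also higher at day 1 (Ctsk 480 against 91.7, Acp5 365 against 42.2, Mmp9 120 against 11.5 CPM). At day 2 the values were 572 against 127, 284 against 51.5 and 131 against 5.77 CPM. Over whole libraries, Ctsk had 513, 131, 192 and 615 CPM at days 0, 1, 2 and 5, and Acp5 304, 75.2, 85.4 and 339 CPM. These 3 genes were chosen after their values had been seen, so they are a description.

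At day 5, the 129 barcodes with at least 5 UMIs of Ctsk (median 8496 UMIs) had a ribosomal protein share of 24.7%, against 16.3% in an equal number of depth-matched barcodes without Ctsk (median 8538 UMIs). The ratio was 1.52 (interval 1.51 to 1.52). Called from 1 UMI, as the 6 markers were, Ctsk gave a ratio of 1.24 (1.24 to 1.25) at day 5. At days 0, 1 and 2, Ctsk from 5 UMIs gave 17.4, 13.015 and 13.9%, from 107, 113 and 96 barcodes. Their matched barcodes had 14.6, 13.3 and 12.5%. The ratios at these 3 days were 1.19, 0.976 and 1.11 from 5 UMIs, and 1.05, 1.04 and 1.10 from 1 UMI. Mmp9 from 1 UMI gave ratios of 1.14, 1.502, 1.30 and 1.45 at days 0, 1, 2 and 5, from 171, 29, 28 and 123 barcodes. Acp5 gave 1.06, 0.939, 0.963 and 1.23 from 1 UMI, with 404, 454, 276 and 493 positive barcodes. From 5 UMIs it gave 1.19, 1.22, 1.49 and 1.53, with 81, 22, 13 and 86 positive barcodes. The last of these had deeper positives (median 15052 UMIs) than matched barcodes (median 9411 UMIs). Top2a was at 137 CPM in the day 5 barcodes with at least 5 UMIs of Ctsk and 119 CPM in their matched ones. With the same call it was 7.49 against 7.50 CPM at day 0, 6.81 against 137 CPM at day 1 and 42.4 against 15.4 CPM at day 2. For Mmp9 from 1 UMI at day 5 it was 134 against 70.1 CPM. The level of Top2a thus varied with the gene and day, and its part in the share was not tested.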
